A study of Mus musculus with 48 samples.

Results

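The genes described here are the heat shock chaperones of the cytosol and mitochondria with their co-chaperones, 47 of the 24444 genes in the expression table. They were chosen by family membership and not by whether the study called them, but with earlier results of these data known. They comprise 7 HSP70 genes, 3 HSP110 genes, 8 J-domain proteins, 6 genes of the BAG and HspBP1 families, 2 HSP90 genes, 9 HSP90 co-chaperones with the ubiquitin ligase CHIP, 5 small heat shock proteins, 5 mitochondrial genes and 2 heat shock factors. RNA-seq was performed on the dissected cerebral cortex of 48 male C57BL/6J mice, with 6 wild-type (WT) and 6 heterozygous Chd8 V986*/+ littermates per age. The ages were embryonic day E14.5 and, after birth, 1 month, then 6 and 12 months. The Chd8 V986*/+ mice carry 1 allele of the chromatin remodeler gene Chd8 into which CRISPR/Cas9 placed stop codons beginning at the residue that names it, in every cell and throughout life, and all derive from 1 line. WT controls carry no modification, and no group received a treatment.

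HSP70 and HSP90 proteins bind unfolded or partly folded proteins and help them reach their native shape. J-domain proteins deliver clients to HSP70 and start its ATP cycle, nucleotide exchange factors of the HSP110 and BAG families release the client, and co-chaperones such as Stip1 pass it on to HSP90. When unfolded proteins accumulate, for example at raised temperature, the transcription factor HSF1 binds heat shock elements in the promoters of many of these genes and raises their transcription, while other members, such as Hspa8 and Hsp90ab1, are abundant in the cortex without stress.

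A heat shock element is built from inverted repeats of the letters GAA, and its presence was scored in the RefSeq promoter sequences of mouse genes (build GRCm38.p6, 250 bases before to 50 bases after the transcription start). Of the 47 members, 38 had a promoter sequence. A gene with several promoter sequences counted if any 1 of them held the units. At least 2 adjoining units (GAANNTTC or TTCNNGAA, each its own reverse complement, with N any base) were present for 18 of these 38 members (47.4%) and for 17% of 27025 gene symbols. At least 3 units, in which another inverted unit follows after 2 bases, and which contain the shorter form, were present for 5 members (13.2%) and for 0.662% of all symbols. The 5 members were Hsph1, Dnajb6, Chordc1, Hspd1 and Hspe1. The stretches that hold the elements of these 5 genes are shown first, because they are the longest elements among the members, followed by those of 6 members with shorter elements whose expression is described below. Capitals mark the GAA and TTC units, all sequences are read 5′ to 3′ on the strand of the gene, and positions are counted from the transcription start.
Hspe1: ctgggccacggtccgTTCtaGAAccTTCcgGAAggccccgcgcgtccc
Hspd1: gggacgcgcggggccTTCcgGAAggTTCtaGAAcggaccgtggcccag
Chordc1: cgGAAcgTTCggGAAaaTTCctGAAgc
Hsph1: gaTTCtgGAAagTTCt
Dnajb6: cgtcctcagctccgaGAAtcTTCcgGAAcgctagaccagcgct
Hspa1a: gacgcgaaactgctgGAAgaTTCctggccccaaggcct
Hspa1b: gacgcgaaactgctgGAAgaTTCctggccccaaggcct
Hspb1: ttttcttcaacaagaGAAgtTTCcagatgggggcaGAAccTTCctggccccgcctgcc
Dnaja4: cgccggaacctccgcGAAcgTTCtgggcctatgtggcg
Dnaja1: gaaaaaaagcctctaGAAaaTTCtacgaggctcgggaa
Fkbp4: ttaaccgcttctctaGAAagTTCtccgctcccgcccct

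The sequences of Hspe1 (chr1:55088044-55088091, plus strand) and Hspd1 (the same bases, minus strand) are 1 element between the RefSeq starts of both genes. These genes encode the mitochondrial chaperonin pair and are transcribed in opposite directions. The element lies at -89 to -72 of Hspe1 and at -144 to -127 of Hspd1. Chordc1 (chr9:18292261-18292287, plus strand) had the longest run of units, from 4 bases before to 19 bases after its start, and in Hsph1 (chr5:149636287-149636302, minus strand) the element lay at 37 to 49, inside the transcribed part. The elements of Dnajb6 (chr5:29735837-29735879, plus strand), Hspb1 (chr5:135887787-135887844, plus strand), Dnaja4 (chr9:54699454-54699491, plus strand), Dnaja1 (chr4:40722329-40722366, plus strand) and Fkbp4 (chr6:128438785-128438822, minus strand) lay upstream of the start, between -151 and -34. Hspa1a (chr17:34972238-34972275, minus strand) and Hspa1b (chr17:34959320-34959357, minus strand) had the same 38 bases at the same distance. A match of letters is a description and does not show that a factor binds there.

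Expression is given as the variance-stabilized (VST) value the authors deposited, which is on a log2 scale and is not adjusted for gene length, so levels are compared between mice and not between genes. Differences are log2 differences of group means with the standard error (SE) from limma, and a difference of 1 is a change of 2-fold at high expression and of more at low expression. Means given as a percentage of WT are these log2 differences turned back to a linear scale. They are not ratios of mean expression, least of all at low expression. In bulk tissue, fewer cells of a type and less RNA per cell cannot be told apart. Chd8 itself was lower in Chd8 V986*/+ mice at each age, with means of 64.6%, 62.7%, 64.2% and 68.8% of WT in order of age (limma adjusted p between 1.1e-07 and 0.026), and no WT mouse overlapped the Chd8 V986*/+ mice. The mean VST value of excitatory neuron markers ranged from 12.77 to 13.38 across the mice at 12 months. In embryos it ranged from 10.528 to 11.455 in WT and from 11.257 to 11.8 in Chd8 V986*/+ mice, a difference of 0.31. The mean of 5 hindbrain and spinal cord markers was near the floor of the table at 12 months. It ranged from 2.68 to 6.71 in WT and from 2.64 to 4.13 in Chd8 V986*/+ embryos. With any 1 embryo left out, 0 members were called at E14.5, but only 0 to 2 of all genes were called. These fits called almost no gene, so the count of members does not bear on these lists. The part of either list in the embryonic values was not tested. At 12 months, WT replicate 6 stood apart across all genes, with 27.9% of genes above and 32.2% below all Chd8 V986*/+ mice, and its Chd8 value was 11.36 against 11.64 to 11.80 in the other WT mice.

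In embryos and in the mice of 1 month and 6 months, expression of the chaperones did not differ detectably between the genotypes in fits without pairing. No member passed an adjusted p of 0.1 in limma at these ages, beside 0.00593% of 16877 genes at E14.5 (46 members tested, since Hspb3 was too low), 0.139% of 17221 genes at 1 month and 0.0927% of 17256 genes at 6 months. An unadjusted p below 0.05 was reached by 0, 3 and 1 members, beside 4.56%, 8.8% and 7.59% of all genes. One fit of all 48 samples also called 0 members at these ages, beside 0.711%, 0.215% and 0.0927% of all genes. The median difference of the members was 0.01, 0.03 and 0.01, against 0.00 for all genes tested at each age. All members tested lay within 0.3 of WT at these ages, with SEs of up to 0.18, 0.16 and 0.26. Hspb3, which was not tested at E14.5, had low means there of 2.43 in WT and 2.83 in Chd8 V986*/+ embryos. The 3 members with an unadjusted p below 0.05 at 1 month were Bag1 (0.09 ± 0.03 SE, adjusted p = 0.44), Dnajb4 (0.12 ± 0.05 SE, adjusted p = 0.47) and Ppid (0.09 ± 0.04 SE, adjusted p = 0.55), and the 1 member at 6 months was Dnajb4 (0.14 ± 0.06 SE, adjusted p = 0.58).

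**Figure D1:**
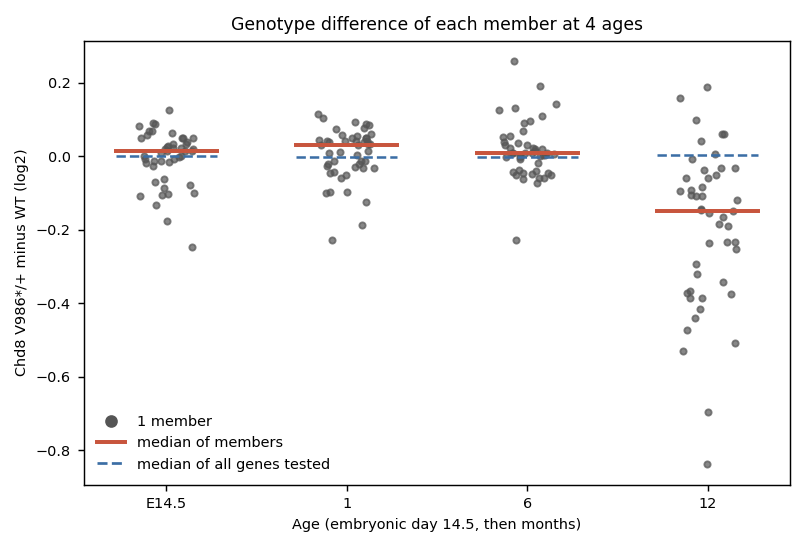
Difference between Chd8 V986*/+ and WT mice (log2, vertical axis) for each of the 47 members (points; 46 at E14.5) at each age (horizontal axis), with the median of the members (solid line) and of all genes tested (dashed line). The members centred on 0 at the 3 younger ages and on -0.15 at 12 months, where they reached down to -0.84.

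At 12 months, chaperones of most roles had lower means in Chd8 V986*/+ than in WT mice, down to 55.9% of WT for the inducible HSP70 gene Hspa1b. The mean was lower in 40 of 47 members, beside 48.6% of 17288 genes, and the median difference was -0.15 against 0.01 for all genes. In the fit of the 12 mice of this age, no member passed an adjusted p of 0.1 (limma, lowest adjusted p = 0.21), beside 0.0463% of genes. An unadjusted p below 0.05 was reached by 23 members, each lower, beside 11.6% of all genes in either direction and 5.39% in the lower direction. In one fit of all 48 samples, 19 members were called, each lower, beside 3.01% of all genes and 1.65% in the lower direction. That fit takes its error from all 8 groups, and the WT mice of 12 months varied more than that. The median SD of the members was 0.177 in this group and from 0.0727 to 0.113 in the other 7 groups. Over all genes the median SD was also highest in this group, at 0.184, against 0.122 to 0.179 in the other 7. Calls named below as made in the fit of 48 samples rest on this pooled error.

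**Figure D2:**
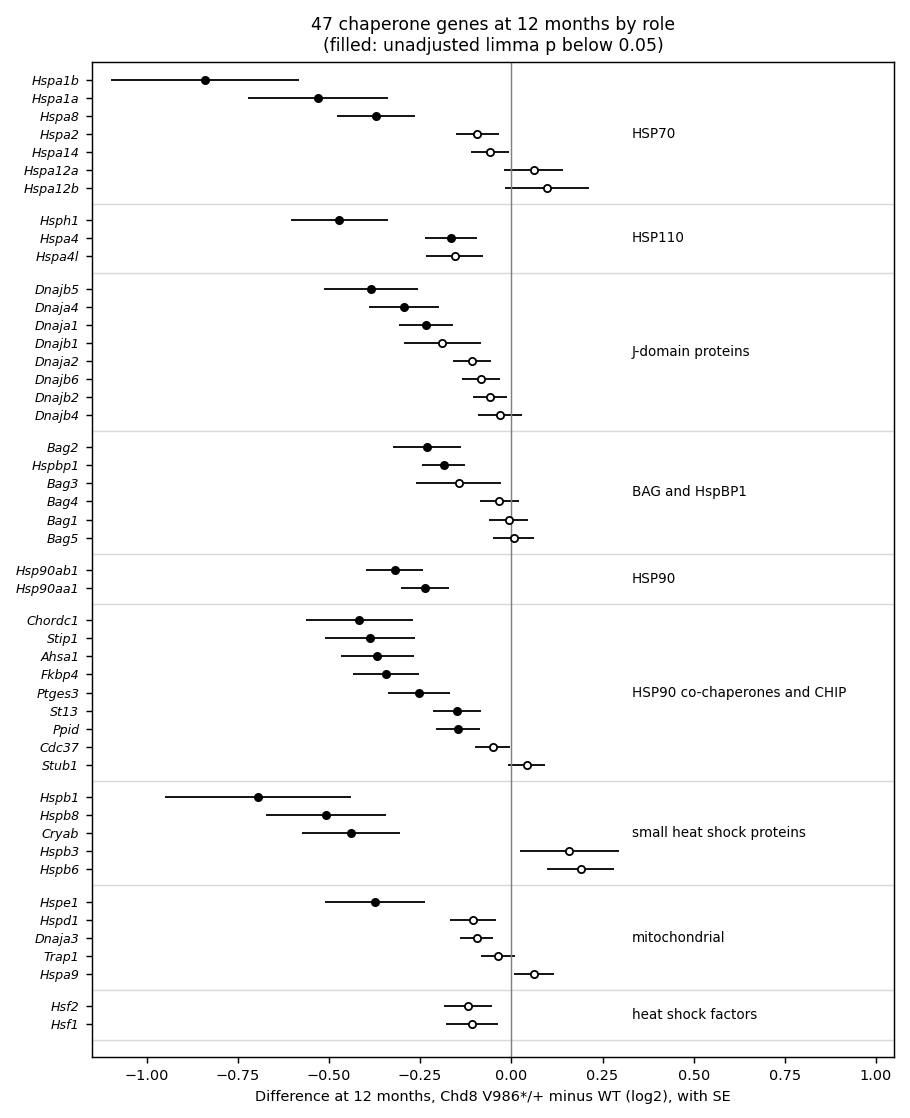
Difference between Chd8 V986*/+ and WT mice at 12 months (log2, horizontal axis, with SE as bars) for the 47 members grouped by role. Filled points have an unadjusted limma p below 0.05. The HSP90 genes, 7 of 9 co-chaperones and 3 of 5 small heat shock proteins are filled, while most mitochondrial and BAG genes lie within 0.15 of 0.

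Both cytosolic HSP90 genes had lower values in Chd8 V986*/+ mice without overlap between the genotypes, and they were the only 2 of 47 members of which this held at 12 months, beside 0.497% of all genes that were lower without overlap. Hsp90ab1, the constitutive form (ENSMUSG00000023944.8, chromosome 17, 45704724 to 45710220 in mm9), ranged from 15.31 to 15.71 (median 15.59) in WT and from 15.17 to 15.25 (median 15.21) in Chd8 V986*/+ mice. All 6 WT mice were above the highest Chd8 V986*/+ mouse, but WT replicates 3 and 4, at 15.33 and 15.31, were separated from it by less than 0.1. Its mean was 80.1% of WT (-0.32 ± 0.08 SE, adjusted p = 0.21; 0.0014 in the fit of 48 samples). Hsp90aa1, the form induced by stress (ENSMUSG00000021270.7, chromosome 12, 111928815 to 111940938 in mm9), ranged from 14.11 to 14.47 (median 14.33) in WT and from 13.99 to 14.10 (median 14.06) in Chd8 V986*/+ mice. The mean was 84.9% of WT (-0.24 ± 0.07 SE, adjusted p = 0.23; 0.019 in the fit of 48 samples). The coding sequences of the pair are 76.8% identical, with a longest shared run of 33 bases.

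The role of HSP90 co-chaperones with CHIP, which also holds the HSP70-binding St13, had the most members below an unadjusted p of 0.05, with 7 of 9. The same number was called in the fit of 48 samples. Ahsa1, which activates the ATPase of HSP90, ranged from 11.04 to 11.75 (median 11.44) in WT and from 10.85 to 11.11 (median 11.02) in Chd8 V986*/+ mice, a mean of 77.5% of WT (-0.37 ± 0.10 SE, adjusted p = 0.23; 0.0036 in the fit of 48 samples). Fkbp4, an immunophilin of steroid receptor complexes, ranged from 11.32 to 11.87 (median 11.71) in WT and from 11.15 to 11.48 (median 11.26) in Chd8 V986*/+ mice, a mean of 78.9% of WT (adjusted p = 0.22; 0.016 in the fit of 48 samples). Stip1, the adaptor between HSP70 and HSP90, ranged from 12.00 to 12.88 (median 12.62) in WT, whereas the 6 Chd8 V986*/+ mice lay between 12.04 and 12.13 (median 12.10). The Stip1 mean was 76.5% of WT (adjusted p = 0.28; 0.03 in the fit of 48 samples), and 4 WT mice were above, and 2 below, all Chd8 V986*/+ mice.

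Chordc1, a zinc-binding partner of HSP90 with the long element shown above, divided the WT mice in the same way. Its WT values were 10.96, 11.08, 10.29, 10.20, 11.07 and 11.18 in replicates 1 to 6, and its Chd8 V986*/+ values ranged from 10.29 to 10.48 (median 10.37). The mean was 74.9% of WT (-0.42 ± 0.15 SE, adjusted p = 0.31; 0.042 in the fit of 48 samples). Ptges3, which stabilizes the closed form of HSP90, had a mean of 83.9% of WT, with 10.60 to 11.15 (median 10.91) in WT and 10.44 to 10.69 (median 10.64) in Chd8 V986*/+ mice. St13, which binds HSP70, and Ppid, an immunophilin, differed by -0.15 each, with adjusted p values in the fit of 48 samples of 0.098 and 0.092. Cdc37, which recruits kinases to HSP90, and Stub1, the ubiquitin ligase CHIP, had means of 96.5% and 103% of WT (adjusted p = 0.69 and 0.76).

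Among the HSP70 genes, the inducible pair and the constitutive Hspa8 had lower means, and the other 4 lay within 0.1 of WT. Hspa8 (ENSMUSG00000015656.10, chromosome 9, 40609067 to 40613283 in mm9), the main cytosolic HSP70 of unstressed cells, ranged from 14.58 to 15.26 (median 15.03) in WT and from 14.47 to 14.62 (median 14.58) in Chd8 V986*/+ mice. The mean was 77.3% of WT (-0.37 ± 0.11 SE, adjusted p = 0.25; 0.015 in the fit of 48 samples), and WT replicates 3 and 4, both at 14.58, lay inside the Chd8 V986*/+ range. Hspa1b (chromosome 17, 35093381 to 35096183 in mm9) had the largest difference of all members, with WT values of 8.27, 8.75, 6.92, 7.39, 8.91 and 8.38 in replicates 1 to 6 and Chd8 V986*/+ values from 7.11 to 7.36 (median 7.29). Its mean was 55.9% of WT (-0.84 ± 0.26 SE, adjusted p = 0.27; 0.075 in the fit of 48 samples). Hspa1a, at 69.3% of WT, was not called in either fit (-0.53 ± 0.19 SE, adjusted p = 0.32 and 0.12).

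The coding sequences of Hspa1a and Hspa1b are 99.6% identical, with 1918 of 1926 aligned bases the same and a shared run of 638 bases. The division of reads between these genes is therefore uncertain, and their values are best read together. Hspa2, Hspa14, Hspa12a and Hspa12b differed by -0.09, -0.06, 0.06 and 0.10, with adjusted p values from 0.55 for Hspa2 to 0.79 for Hspa12a.

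The HSP110 genes and J-domain proteins, which drive the HSP70 cycle, had lower means in 11 of 11 members, and 4 of them were called in the fit of 48 samples. Hsph1, an HSP110 gene of the cytosol, ranged from 12.86 to 13.79 (median 13.51) in WT and from 12.84 to 13.01 (median 12.88) in Chd8 V986*/+ mice, and its mean was 72.1% of WT (-0.47 ± 0.13 SE, adjusted p = 0.23; 0.032 in the fit of 48 samples). Dnajb5 had a mean of 76.6% of WT, with 11.21 to 12.17 (median 11.48) in WT and 11.14 to 11.37 (median 11.21) in Chd8 V986*/+ mice (adjusted p = 0.29; 0.081 in the fit of 48 samples). Dnaja4 ranged from 10.66 to 11.26 (median 11.07) in WT and from 10.50 to 10.83 (median 10.68) in Chd8 V986*/+ mice, a mean of 81.6% of WT (adjusted p = 0.29; 0.035 in the fit of 48 samples).

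Dnaja1, which delivers clients to HSP70, lay at 11.99 to 12.41 (median 12.28) in WT and at 11.93 to 12.05 (median 12.00) in Chd8 V986*/+ mice, and its mean was 85% of WT (adjusted p = 0.28; 0.019 in the fit of 48 samples). Dnajb1, the stress-induced partner of HSP70, was called in neither fit, with 10.60 to 11.28 (median 10.98) in WT and 10.66 to 10.99 (median 10.72) in Chd8 V986*/+ mice (-0.19 ± 0.11 SE, adjusted p = 0.49 and 0.39). Of the nucleotide exchange factors outside the HSP110 family, Hspbp1 was called in the fit of 48 samples, with a mean of 88% of WT (10.30 to 10.62, median 10.37, in WT and 10.11 to 10.30, median 10.24, in Chd8 V986*/+ mice, adjusted p = 0.28 and 0.075). The 5 BAG genes differed by -0.23 (Bag2) to 0.01 (Bag5) and were called in neither fit.

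The small heat shock proteins, which hold unfolded proteins without ATP, differed in both directions. Hspb1 ranged from 6.04 to 7.96 (median 7.55) in WT and from 6.27 to 6.80 (median 6.61) in Chd8 V986*/+ mice, and its mean was 61.7% of WT (-0.70 ± 0.26 SE, adjusted p = 0.33; 0.11 in the fit of 48 samples). Cryab, the crystallin of oligodendrocytes and astrocytes, ranged from 10.90 to 11.91 (median 11.58) in WT and from 10.95 to 11.08 (median 10.99) in Chd8 V986*/+ mice, a mean of 73.7% of WT (adjusted p = 0.27; 0.086 in the fit of 48 samples). Hspb8, which acts with Bag3 in the disposal of misfolded proteins, had a mean of 70.3% of WT, with 8.28 to 9.53 (median 8.73) in WT and 8.05 to 8.59 (median 8.31) in Chd8 V986*/+ mice (adjusted p = 0.28; 0.058 in the fit of 48 samples). Hspb6 and Hspb3 had higher means, at 114% and 112% of WT, and were called in neither fit (adjusted p = 0.44 and 0.65). The oligodendrocyte and astrocyte marker lists, which mark the cells richest in Cryab, differed by -0.03 and -0.01 at this age. Their single markers ranged from -0.27 (Mobp) to 0.09 (Mog) and from -0.11 (Slc1a3) to 0.07 (Aqp4). The part of cell makeup in the Cryab difference was not tested.

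In mitochondria, the chaperonin subunit Hspe1 was the 1 of 5 members called in the fit of 48 samples. It ranged from 9.54 to 10.46 (median 9.79) in WT and from 9.39 to 9.61 (median 9.56) in Chd8 V986*/+ mice, a mean of 77.1% of WT (-0.38 ± 0.14 SE, adjusted p = 0.33; 0.056 in the fit of 48 samples). Its partner Hspd1, transcribed from the other side of the shared element, had a mean of 93% of WT (-0.11 ± 0.06 SE, adjusted p = 0.53; 0.44 in the fit of 48 samples). The 5′ ends of both genes overlap in the mm9 annotation, though not by the RefSeq starts. In mm9, Hspd1 ends at 55145087 and Hspe1 starts at 55144976 on chromosome 1. Whether the libraries kept strand is not settled by the sources, so the assignment of reads in the overlap to Hspd1 or Hspe1 is uncertain. Hspa9, the mitochondrial HSP70, and Trap1, the mitochondrial HSP90, had means of 104% and 97.5% of WT (adjusted p = 0.66 and 0.78), and the J-domain protein Dnaja3 differed by -0.10 (adjusted p = 0.44). The transcription factor genes Hsf1 and Hsf2 differed by -0.11 and -0.12 (adjusted p = 0.56 and 0.48), and Hsf1 ranged from 9.33 to 9.69 (median 9.49) in WT and from 9.27 to 9.52 (median 9.37) in Chd8 V986*/+ mice. HSF1 is regulated mainly by its activity and location, which were not measured.

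The members with a heat shock element in the promoter window were spread over these results. The median difference at 12 months was -0.38 in the 5 members with 3 units, -0.23 in the 13 members with 2 units only, -0.11 in the 20 members with neither and -0.15 in the 9 members without a promoter sequence. The ranges of these sets overlapped, at -0.47 to -0.08, -0.84 to 0.19, -0.39 to 0.10 and -0.44 to 0.06. The first median is the value of Hspe1, which shares 1 element with Hspd1 of the same set. Only exact units were scored, and a relation of the differences to the elements was not tested. Stip1, Ahsa1 and Dnajb5 had no element in the window, whereas Stub1 and Hspb6 had one of 2 units and higher means.

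**Figure D3:**
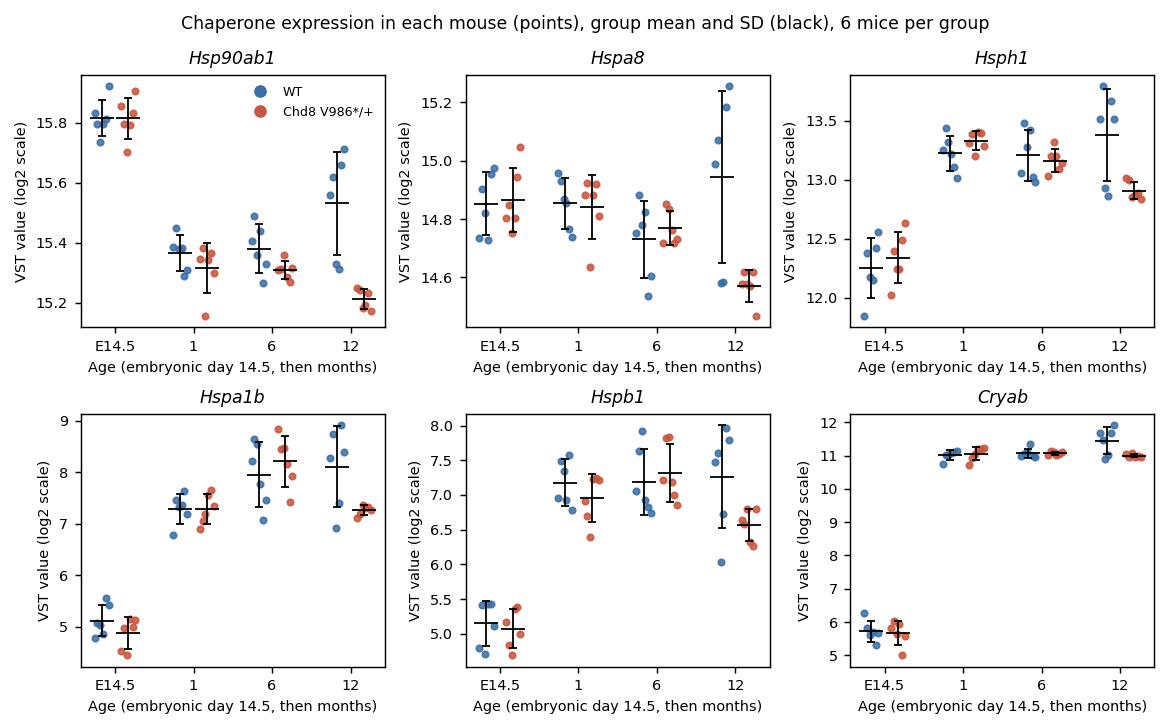
VST values (log2 scale, vertical axes) of 6 members in each mouse (points) at the 4 ages (horizontal axes), with group means and SD in black. At 12 months, the WT values of each gene divide into 4 higher and 2 lower ones, while the 6 Chd8 V986*/+ mice lie close together.

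The spread at 12 months came from the WT mice, and the same animals were high for many members. WT replicates 1, 2, 5 and 6 were above all Chd8 V986*/+ mice in 28, 38, 36 and 33 of 47 members, beside 19.8%, 23.8%, 20.9% and 27.9% of all genes. WT replicates 3 and 4 were above all of them in 7 and 11 members, beside 13.1% and 15.7% of all genes, and within their range in 33 and 29 members. Each of the 47 members is scored in the same libraries, so these counts describe 6 animals and not 47 observations. The mean VST value over the 47 members ranged from 10.53 to 10.90 in WT and from 10.53 to 10.57 in Chd8 V986*/+ mice. The SD was larger in WT than in Chd8 V986*/+ mice for 44 of 47 members at 12 months, beside 69.9% of all genes, and for 25, 29 and 35 members at E14.5, 1 and 6 months, beside 54.5%, 53.5% and 50.5%.

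The number of members called at 12 months depended on 1 of these animals. Without WT replicate 3, 15 members were called in the fit of this age, each lower, beside 1.45% of all genes and 0.822% in the lower direction, among them Hspa1b (-1.08, adjusted p = 0.04), Hspb1 (-0.94, adjusted p = 0.043), Fkbp4 (-0.41, adjusted p = 0.045) and Cryab (-0.55, adjusted p = 0.048). This mouse had the lowest WT mean over the members, at 10.53. Leaving it out widens the difference by construction, so these calls add no support. Without WT replicate 6, the library that stood apart across all genes, 0 members were called, 22 had an unadjusted p below 0.05 and the median difference was -0.14. The largest and smallest median differences when any 1 of the 12 mice was left out were -0.19 and -0.11.

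**Figure D4:**
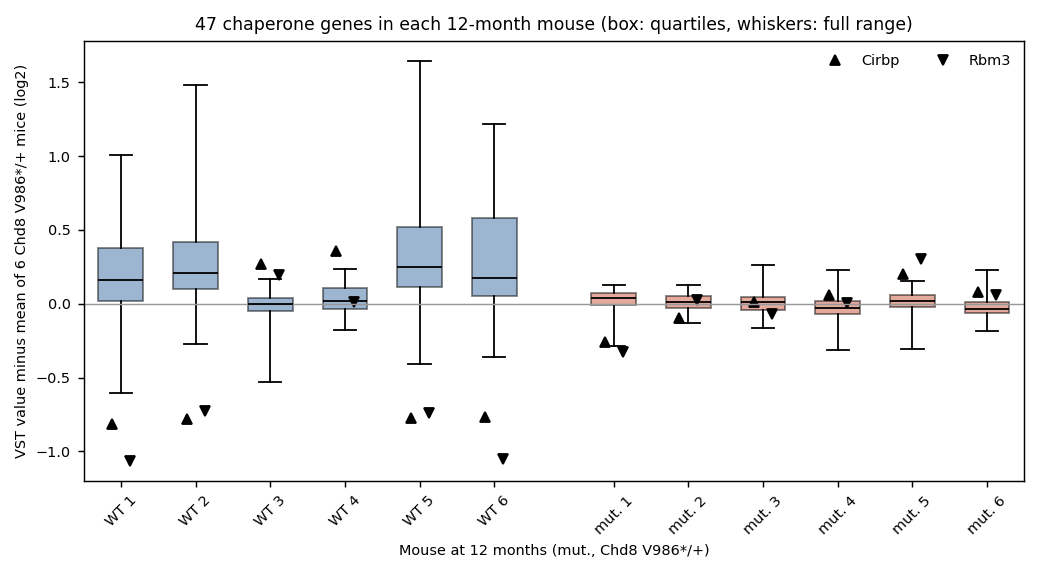
Expression of the 47 members in each mouse at 12 months, as VST value minus the mean of the 6 Chd8 V986*/+ mice (log2, vertical axis); boxes give quartiles, lines medians and whiskers the full range, and triangles the cold-induced genes Cirbp and Rbm3. WT replicates 1, 2, 5 and 6 lie above 0 for most members and below 0 for Cirbp and Rbm3, whereas WT replicates 3 and 4 lie near the Chd8 V986*/+ mice for both.

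Genes outside the module moved with the same animals. Cirbp and Rbm3, which encode RNA-binding proteins induced by mild cooling, were high where the chaperones were low. Cirbp was 9.34, 9.37, 10.42, 10.50, 9.38 and 9.38 in WT replicates 1 to 6 and between 9.89 and 10.35 in Chd8 V986*/+ mice, and Rbm3 was 9.25, 9.58, 10.50, 10.33, 9.57 and 9.26 in WT and between 9.98 and 10.62 in Chd8 V986*/+ mice. The mean of 10 genes of protein folding in the endoplasmic reticulum ranged from 10.67 to 11.38 in WT and from 10.65 to 10.80 in Chd8 V986*/+ mice, and Hspa5, the HSP70 of that compartment, was 12.44 and 12.50 in WT replicates 3 and 4 and from 13.29 to 13.56 in the other 4. A list of 5 genes induced by glucocorticoids had a mean of 10.59 to 11.30 in WT and 10.47 to 11.24 in Chd8 V986*/+ mice, a difference of -0.28. The part of these groups of genes in the chaperone differences was not tested.

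Every cell type marker list overlapped between the genotypes at this age. The list means differed by 0.06 for excitatory neurons, -0.04 for interneurons, -0.01 for astrocytes, -0.03 for oligodendrocytes, 0.01 for microglia, -0.13 for endothelial cells and -0.02 for mural cells. Single markers differed more, down to -0.26 for Sst (interneurons), -0.27 for Mobp (oligodendrocytes), -0.25 for C1qa (microglia), -0.235 for Cldn5 (endothelial) and -0.26 for Kcnj8 (mural). The highest differences in the same lists were 0.11, 0.09, 0.17, 0.00 and 0.17. Each of these lists held 1 marker lower, and none higher, at an unadjusted limma p below 0.05. In the fit of 48 samples, 1 interneuron marker was called lower. Larger differences with wide ranges were found for neural progenitor markers, with 7.65 to 7.95 in WT and 7.79 to 9.23 in Chd8 V986*/+ mice and 3 of 5 markers higher at an unadjusted limma p below 0.05, for 4 striatal markers, with 10.24 to 10.82 and 9.61 to 10.71, and for choroid plexus markers, with 6.10 to 7.45 and 5.43 to 7.99. The means of these 3 sets differed by 0.57, -0.30 and -0.25 in that order. All listed markers in these 3 sets were above the floor of the table. The part of any of these lists in the chaperone differences was not tested.

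Other chaperone and co-chaperone genes, 50 in all, such as the DNAJC family, mitochondrial proteases and tetratricopeptide co-chaperones, were examined beside the module. At 12 months, the means of 27 were lower and of 23 higher in Chd8 V986*/+ mice, with a median of -0.01, and none was called in either fit, while 2 lower and 1 higher had an unadjusted p below 0.05. At the younger ages, Fkbp5, an immunophilin of HSP90 that is also induced by glucocorticoids, was higher at 1 month, with 10.27 to 10.54 in WT and 10.51 to 10.92 in Chd8 V986*/+ mice (0.34 ± 0.06 SE, adjusted p = 0.055; 0.57 in the fit of 48 samples). Dnajc27 was called at E14.5 in the fit of 48 samples only (-0.18 ± 0.07 SE, adjusted p = 0.98 and 0.098).

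Whether the genotype difference at 12 months departed from that at a younger age was tested as an interaction in the 24 mice of both ages. No member passed an adjusted p of 0.1 against E14.5, 1 month or 6 months, beside 0%, 0% and 0.0116% of all genes called in limma. An unadjusted p below 0.05 was reached by 17, 20 and 22 of 47 members, each with the lower genotype difference at 12 months, beside 7.93%, 11.4% and 8.53% of all genes in either direction. The median difference of differences was -0.16, -0.19 and -0.18. Against 1 month, 14 members passed without WT replicate 3 of 12 months, beside 1.34% of genes, and 11 without WT replicate 4, beside 0.915%. These mice had the lowest WT means over the members at 12 months, so leaving either out widens the difference by construction. These comparisons share the 12 mice of 12 months. Hspa8 had the lowest p against 6 months (-0.41 ± 0.13 SE, adjusted p = 0.47), and Ahsa1 had it against 1 month (-0.42 ± 0.11 SE, adjusted p = 0.23) and E14.5 (-0.43 ± 0.12 SE, adjusted p = 0.54). The fit of 48 samples called Ahsa1 against E14.5 (adjusted p = 0.087), beside 0.0809% of genes, and 0 members against 1 month or 6 months, beside 0.0116% and 0.0579% of genes.

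Changes with age within a genotype were far larger between the embryo and 1 month than later. From E14.5 to 1 month, 29 members rose and 14 fell in WT mice, beside 43.4% and 42.3% of 17285 genes, and 28 rose and 14 fell in Chd8 V986*/+ mice, beside 43.7% and 42.4% of 17227 genes. The largest rises in WT mice were those of Cryab, from a mean of 5.73 to 11.02 (5.29 ± 0.13 SE, adjusted p = 3e-15), Hspa2 (3.65 ± 0.10 SE, adjusted p = 2.4e-14), Dnaja4 (3.35 ± 0.07 SE, adjusted p = 8.3e-16) and Hspb3 (3.25 ± 0.22 SE, adjusted p = 7.4e-10). The same differences in Chd8 V986*/+ mice were 5.38, 3.57, 3.51 and 2.67. Hspb3, a small heat shock protein of muscle, lay at or near the floor of 2.14 in WT embryos (2.12 to 3.02), so its rise depends on the transformation of low counts.

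All 5 small heat shock proteins rose between E14.5 and 1 month in WT mice, by 0.44 for Hspb6 to 5.29 for Cryab, and with them 4 of 7 HSP70 genes, among them Hspa1b (2.17 ± 0.16 SE, adjusted p = 3.5e-09) and Hspa1a (1.81 ± 0.14 SE, adjusted p = 6.3e-09). Of the 8 J-domain proteins, 6 rose and Dnaja1 fell by 0.37. In the role of HSP90 co-chaperones with CHIP, 6 of 9 fell and 3 rose, by up to 0.24 for Stub1. The largest falls in WT mice were those of Hsf2 (-1.39 ± 0.05 SE, adjusted p = 6.3e-13), Fkbp4 (-1.37 ± 0.06 SE, adjusted p = 5.7e-12), Hspa14 (-0.65 ± 0.07 SE, adjusted p = 6.2e-07) and the mitochondrial chaperonin Hspd1 (-0.65 ± 0.07 SE, adjusted p = 4.4e-07). In Chd8 V986*/+ mice these falls were -1.47, -1.39, -0.68 and -0.67. The HSP90 genes parted, as Hsp90ab1 fell by 0.45 and Hsp90aa1 rose by 0.25 in WT mice (adjusted p = 8.6e-06 and 0.00086). The cell types of the cortex change over this interval too, so these differences describe the tissue.

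**Figure D5:**
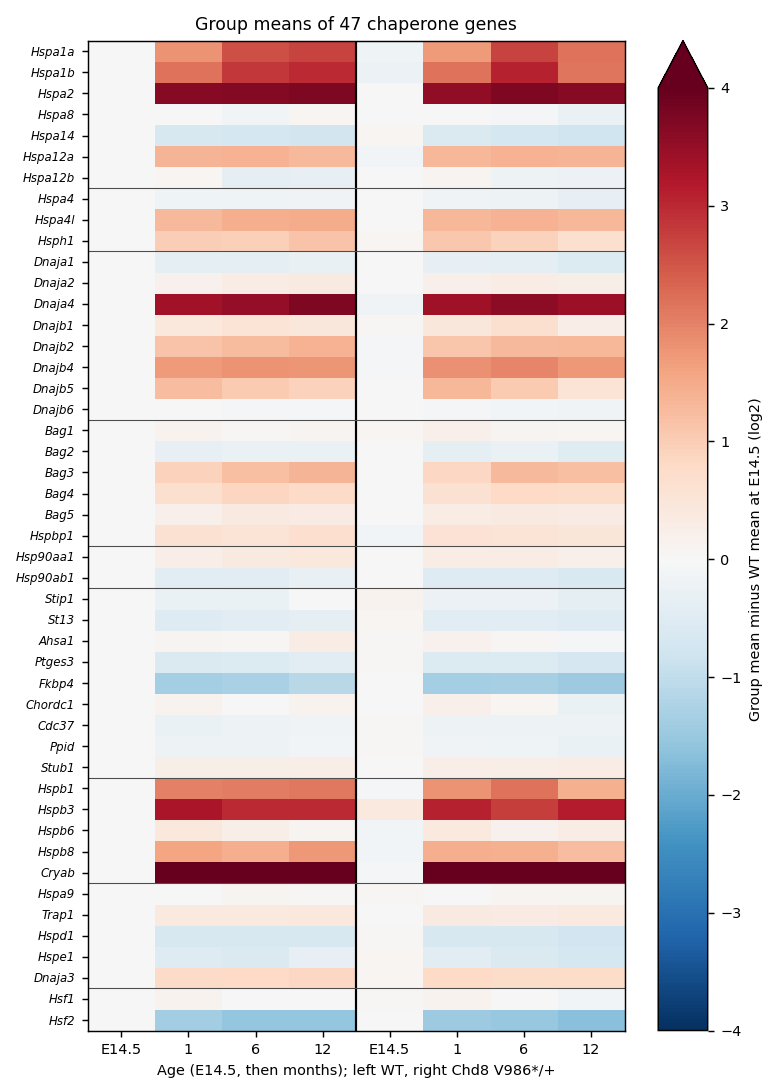
Group means of the 47 members at each age (columns; WT left, Chd8 V986*/+ right) as the difference from WT at E14.5 (log2, colour scale; values above 4 share the darkest red), with lines between the roles. Cryab, Hspa2, Dnaja4 and Hspb3 rose most after birth and Hsf2 and Fkbp4 fell most, in both genotypes.

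From 1 to 6 months, 8 members rose and 3 fell in WT mice, beside 12.3% and 12.3% of 17255 genes, and 10 rose and 6 fell in Chd8 V986*/+ mice, beside 14% and 12.8% of 17207 genes. Among called members, the inducible HSP70 genes rose most in both. Hspa1a rose by 0.77 ± 0.14 SE in WT (adjusted p = 0.0013) and by 1.00 ± 0.15 SE in Chd8 V986*/+ mice (adjusted p = 0.00022), and Hspa1b by 0.66 ± 0.23 SE (adjusted p = 0.051) and 0.93 ± 0.19 SE (adjusted p = 0.0026). The individual 6-month mice were wide apart for Hspa1b, from 7.08 to 8.64 in WT and from 7.41 to 8.83 in Chd8 V986*/+ mice. Among called members, Bag4 and Dnaja4 followed in WT mice with rises of 0.23 and 0.18 (adjusted p = 0.00079 and 0.015), and Bag3 and Dnajb2 in Chd8 V986*/+ mice with 0.48 and 0.21 (adjusted p = 0.015 and 0.0018).

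The called falls over this interval in WT mice were those of Hspa12b, an atypical HSP70 gene of endothelial cells (-0.50 ± 0.11 SE, adjusted p = 0.0057), Hsf1 (-0.16 ± 0.05 SE, adjusted p = 0.034) and Hsf2 (-0.15 ± 0.06 SE, adjusted p = 0.078). In Chd8 V986*/+ mice the 4 largest falls among called members were those of Hspa12b (-0.31, adjusted p = 0.069), Dnajb5 (-0.27, adjusted p = 0.035), Hsph1 (-0.17, adjusted p = 0.022) and Hsf1 (-0.16, adjusted p = 0.047).

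From 6 to 12 months, 10 members fell in Chd8 V986*/+ mice and 0 were called in WT mice. The difference between the genotypes over this interval is the interaction against 6 months given above, in which no member passed. In WT mice, 0 members passed in limma, beside 0.00579% of 17283 genes. An unadjusted p below 0.05 was reached by 4 members (Dnajb2, Cryab, Ahsa1 and Hspbp1, each with a higher mean), beside 6.75% of genes, and the median was 0.06 against -0.01 for all genes. In Chd8 V986*/+ mice, the 10 that fell and 0 that rose stood beside 2.36% and 1.07% of 17254 genes, with a median of -0.10 against 0.00 for all genes. The HSP70 genes Hspa1b (-0.95 ± 0.17 SE, adjusted p = 0.014) and Hspa1a (-0.54 ± 0.14 SE, adjusted p = 0.063), the small heat shock protein Hspb1 (-0.75 ± 0.16 SE, adjusted p = 0.033) and Dnajb5 (-0.52 ± 0.08 SE, adjusted p = 0.0081) fell most. Hspb1 went from 6.85 to 7.83 (median 7.20) at 6 months to 6.27 to 6.80 (median 6.61) at 12 months, without overlap, and Hspa1b from 7.41 to 8.83 (median 8.31) to 7.11 to 7.36 (median 7.29), also without overlap. The other 6 were Dnajb1, Chordc1, Hsph1, Dnajb4, Hspa8 and Dnaja1, which fell by 0.16 to 0.36. The mice of both ages did not overlap in 9 members, each lower at 12 months, beside 1.08% of genes. In the fit of 48 samples, 3 members were called, each lower, beside 0.342% of genes, namely Dnajb5 (adjusted p = 0.061), Hspa1b (adjusted p = 0.084) and Dnajb4 (adjusted p = 0.084).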

How the data were processed

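RNA-seq libraries of polyadenylated RNA were made from cortex of 6 mice per genotype and age. The labels and the study's methods name different library kits. The authors aligned reads to mm9 with STAR 2.5.2b, quantified transcripts with Salmon 0.11.3 and processed the counts in DESeq2 with batch in the model. The deposited values are VST values on a log2 scale, not counts. The most frequent value, 2.14, was taken as the floor (15.7% of values). For every gene, replicates 1 to 3 and replicates 4 to 6 had equal means (within 3.38e-14), so a difference between these sets had been removed before deposition, which can lower the apparent spread. The read depth behind a gene's value cannot be read from VST values, and counting errors are not given.

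The 47 members, their roles and all other gene lists were chosen with earlier results of these data known. Samples were grouped by the genotype, age and replicate in their labels. Groups were compared with limma 3.58.1 (intensity trend; R 4.3.3) over genes with a mean of at least 0.5 above the floor, called at a Benjamini-Hochberg adjusted p below 0.1 over all genes tested. P-values measure the spread between the 6 samples of a group, and each member's values come from the same libraries. Values are named for members called in a genotype comparison or interaction in either fit, for members without overlap between genotypes, for Hspa1a, Hspa1b, Hspb1, Dnajb1, Hsph1, Hsp90aa1, Hsp90ab1, Hspa8 and Hsf1 whatever their result, for the 4 largest rises and falls of each age comparison, and for other chaperones called by genotype. The fit was tested on simulated data. Alternatives were one fit of all 48 samples, a replicate block, replicate set or read depth as a covariate, other filters, variance priors, scalings, thresholds, array weights and leaving out each mouse. Promoters are RefSeq sequences of GRCm38.p6, and gene positions are from the mm9 annotation. Python 3.11.15, pandas 2.3.3 and matplotlib 3.10.9 were used.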

Additional observations from a re-analysis of the deposited data

Results flagged for a closer look

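Among 192 sets of 6 mice examined for the named genes (each gene in each group), 13 held 1 mouse that lay far from the other 5, by Dixon's test at its 95% critical value. Chance flags about 1 in 20 such sets.

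In Chd8 V986*/+ mice these were Hspa8 at 12 months (replicate 6, 14.47), Dnaja1 at 6 months (replicate 3, 12.21), Dnajb1 at 6 months (replicate 5, 10.77) and at 12 months (replicate 4, 10.99), Hsp90ab1 at 1 month (replicate 3, 15.16), Ahsa1 at 1 month (replicate 4, 11.33) and Hspe1 at 1 month (replicate 3, 10.1). In WT mice they were Dnaja4 at E14.5 (replicate 3, 6.96) and at 1 month (replicate 1, 10.48) and Cryab at 1 month (replicate 1, 10.75). The targeted gene Chd8 lay apart in Chd8 V986*/+ replicate 1 at E14.5 (11.6), in WT replicate 6 at 12 months (11.36) and in Chd8 V986*/+ replicate 6 at 12 months (11.16).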

How the results depend on the processing

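The differences at 12 months of the 19 members called in the fit of 48 samples, and the median at 12 months, kept their sign under every alternative. Medians close to 0 did not. The medians of genotype at E14.5 (0.014) and at 6 months (0.008) reached -0.011 and -0.005 when 1 mouse was left out, and those from 1 to 6 months reached -0.008 in WT mice (0.011 in full; -0.002 with read depth as a covariate) and 0.001 in Chd8 V986*/+ mice (-0.012 in full). The count of members called between genotypes at 12 months was 0 in the fit of that age and 19 in one fit of all 48 samples, without or with a replicate block. That fit of 48 samples also called 10 instead of 16 members from 1 to 6 months in Chd8 V986*/+ mice, 3 instead of 10 from 6 to 12 months (3 with the block), and 1 instead of 0 in the interaction of 12 months with E14.5 (1 with the block). An adjusted p below 0.05 left 6 of 11 members from 1 to 6 months in WT mice, and quantile normalization gave a median of 0.13 instead of 0.26 from E14.5 to 1 month in Chd8 V986*/+ mice. The cause of these shifts was not tested, apart from the lower threshold itself.

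Leaving out 1 mouse gave 0 to 15 members between genotypes at 12 months (15 without WT replicate 3), 0 to 14 in the interaction of 12 months with 1 month (14 without WT replicate 3, beside 1.34% of genes, and 11 without WT replicate 4, beside 0.915%), and 7 to 12 from 1 to 6 months in WT mice (7 without WT replicate 1 of 1 month). At 12 months, replicates 3 and 4 had the lowest WT means over the members. The labels do not say whether same-numbered samples of the genotypes belong together. Their mean correlations were 0.23, 0.018, 0.045 and -0.034 at the 4 ages. At E14.5, 4 of 6 pairs were over 0.1 and 4 samples correlated best with their own number, which is a hint from the data and not from the design. A replicate block on this number called 17 instead of 11 members from 1 to 6 months in WT mice and moved no other count of members by over 1.5 times in the fits of single comparisons.

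Values near the floor, as for Hspb3 in embryos, carry little information, and the comparisons of 6 mice against 6 leave SEs of up to 0.26 for a member's genotype difference.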

Other observations

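At 1 month, genes induced by glucocorticoids were examined as a list of 5, which shares Fkbp5 with the other chaperones. Of these, 4 had higher means in Chd8 V986*/+ mice with an unadjusted limma p below 0.05, Fkbp5 was called, and the median difference was 0.31. At 12 months the means of all 5 were lower, with 2 below an unadjusted p of 0.05, none called and a median of -0.34. Of the 10 genes of endoplasmic reticulum folding, 9 had lower means with an unadjusted p below 0.05 at 12 months, 8 of them called in the fit of 48 samples and 0 in the fit of that age, with a median of -0.39, while at 1 and 6 months 9 of 10 had higher means, with medians of 0.08 and 0.08 and none called.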
